A study of Mus musculus with 15 samples.

Results

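The genes described here encode the subunits of voltage-gated sodium and calcium channels in mouse brain. They were chosen by name: every row of the expression tables whose symbol begins with Scn, a number and a or b, or with Cacna, Cacnb or Cacng. That gave 40 of the 21878 genes listed, 14 for sodium and 26 for calcium channels. The rule itself uses no measured value, but it was set with earlier results of these data known.

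RNA-seq was carried out on the prefrontal forebrain cortex of mice in 4 groups, 15 libraries in all. The DKO nicotine group (3 libraries) carried the genotype PS1/PS2 DKO, a conditional knockout of both presenilin genes, and took nicotine at 100 µg/ml in the drinking water for 3 months from 8 months of age. The DKO water group (4 libraries) had the same genotype and drank water, the WT nicotine group (4 libraries) was wildtype C57BL6/J on the same nicotine regimen, and the WT water group (4 libraries) was wildtype C57BL6/J on water. All mice had been through behaviour tests before the tissue was taken. The labels name no Cre driver for the conditional alleles, and whether the numbered libraries stand for separate mice is not said. The p-values speak only to the scatter among these libraries, which may be technical.

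Each of these channels is built around a large pore subunit, called alpha, which senses the membrane voltage and passes the ion. Sodium channels start and carry the action potential, and their small beta subunits set gating and placement at the axon. Calcium channels turn depolarisation into calcium entry, in families named by their currents: P/Q-, N- and R-type channels trigger transmitter release, L-type channels signal from soma and dendrites to the nucleus, and T-type channels open near rest and support burst firing. Their beta subunits and the extracellular alpha2delta subunits carry the pore to the membrane, and most gamma subunits of brain, the TARPs, are known chiefly as partners of AMPA-type glutamate receptors.

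Values are FPKM, fragments scaled to transcript length and to library depth, so levels can be compared between genes. Each fold change is a difference of log2(FPKM + 1), a scale that shrinks the changes of weakly expressed genes. A gene was tested if it reached 1 FPKM in at least 3 libraries, and it is called when the limma p-value, adjusted over the 12728 tested genes by Benjamini-Hochberg, is under 0.05. Of the 40 subunit genes, 30 were tested.

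Upstream windows are shown for Cacna1i, the gene with the largest fall in DKO water, and for Scn2a1, the pore gene with the highest mean FPKM, which also fell. Both are the 250 bases before a RefSeq start on the plus strand of GRCm38.p6. Each was picked because it overlaps no GENCODE exon and hardly any of its own RefSeq gene. Of the largest falls and rises called in DKO water, only these genes had such a window. Cacng3, Cacnb4, Scn8a, Cacna2d1, Scn1a, Cacnb3, Scn7a and Cacna2d2 had none. The last 5 bases of the Scn2a1 window lie inside the RefSeq gene, which has more than one listed start. Capitals would mark a GC box (GGGCGG) or an EGR-type site (GCGGGGGCG) on either strand, and neither window holds one.

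Cacna1i, chr15:80286988-80287237, plus strand: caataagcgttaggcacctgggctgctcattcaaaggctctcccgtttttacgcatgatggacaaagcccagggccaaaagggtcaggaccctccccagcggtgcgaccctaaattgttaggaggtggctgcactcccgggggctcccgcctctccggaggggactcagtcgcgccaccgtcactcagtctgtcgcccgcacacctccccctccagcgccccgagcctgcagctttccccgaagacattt

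Scn2a1, chr2:65620519-65620768, plus strand: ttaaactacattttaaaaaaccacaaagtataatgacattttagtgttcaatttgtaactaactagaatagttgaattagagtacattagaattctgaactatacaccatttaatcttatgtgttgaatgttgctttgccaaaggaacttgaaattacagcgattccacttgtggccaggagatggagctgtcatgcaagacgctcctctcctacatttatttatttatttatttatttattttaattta

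The Cacna1i window was 62.4% G and C, and the Scn2a1 window was 29.6%, the lowest among the 41 RefSeq entries for 30 of the 40 genes. The median over those 41 windows was 56.8%, beside 52.4% over all 32851 windows of the table. A GC box stood in 15 of the 41 windows and in 32.7% of all windows. The EGR-type site stood in 4, those of Cacna1b, Cacna2d1, Cacna2d2 and Scn8a, and in 2.57% of all windows. The cAMP response element core TGACGT was found in 1 (Cacnb2) and in 6.47% of all windows, while the E-box CACGTG and the left arm of the RE1 element, TTCAGCACC, were in none of the 41 and in 6.02% and 0.301% of all windows. GC box and EGR-type matches can overlap, and a match is a description of the letters, not of binding. The 2 printed windows, both of genes that fell in the knockout, thus differed widely in base composition.

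Libraries held 16334904 to 19469215 reads assigned to genes, and for a median-length gene 65.3 reads made up 1 FPKM. The targeted gene Psen2 had a mean level of 1.57 ± 0.199 FPKM (SD, n = 3) in the DKO nicotine libraries and 1.51 ± 0.179 in those of DKO water, against 6.48 ± 0.571 in WT nicotine and 6.43 ± 0.77 in WT water (SD, n = 4 each). Microglia and macrophage markers summed to 1198 to 1397 FPKM in DKO water against 303.9 to 350.7 in WT water, with 16 of 18 called higher, where 25.5% of all tested genes were called higher and 12.4% lower. The astrocyte markers had 15 of 15 called higher, the oligodendrocyte markers 8 of 15 higher and 1 lower, the oligodendrocyte precursor markers 3 of 14 higher, a share no larger than that of all tested genes, the endothelial and mural markers 6 of 15 higher and the choroid plexus and meningeal markers 3 of 6 higher. Excitatory neuron markers summed to 2065 to 2231 FPKM in DKO water against 2623 to 2700 in WT water (12 of 20 called lower, none higher), pan-neuronal markers to 4618 to 4918 against 5254 to 5408 (8 of 20 lower, 4 higher), and inhibitory neuron markers to 1104 to 1250 against 977.9 to 1055 (11 of 19 higher, none lower). In DKO nicotine against WT nicotine, where 24.6% of all tested genes were called higher and 11% lower, the called markers were 14 of 18 higher for microglia and macrophages (1123 to 1330 FPKM against 302.1 to 342.0), 10 of 15 higher for astrocytes, 7 higher and 1 lower of 15 for oligodendrocytes, 2 of 14 higher for oligodendrocyte precursors, 4 of 15 higher for endothelial and mural cells and 3 of 6 higher for choroid plexus and meninges. Among neurons they were 12 lower and 1 higher of 20 for excitatory (2035 to 2253 FPKM against 2696 to 2890), 8 lower and 2 higher of 20 for pan-neuronal (4578 to 4960 against 5138 to 5413) and 8 of 19 higher for inhibitory markers (1027 to 1229 against 989.5 to 1084). Astrocyte markers summed to 2215 to 2292 FPKM in DKO nicotine and 2191 to 2338 in DKO water, against 1578 to 1793 in WT nicotine and 1476 to 1626 in WT water. No marker of these 9 lists was at 0 in every library. Bulk RNA cannot tell fewer cells of a type from less RNA per cell, and the part of these marker differences in the channel results was not tested. The 4 Y-linked genes summed to 35.9, 0.233 and 36.6 FPKM in DKO nicotine, 24.3 to 33 in DKO water, 0.0909 to 0.144 in WT nicotine and 28.9 to 33 in WT water. Nicotine against water in WT therefore cannot be told apart from the Y-linked difference, the DKO against WT comparison under nicotine differs in it in 2 of 3 knockout libraries, and the comparison under water does not. DKO nicotine against DKO water and DKO nicotine against WT water each differ in it in 1 of 3 DKO nicotine libraries. The interaction, which holds the WT nicotine libraries, cannot be told apart from the Y-linked difference.

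The 40 genes spanned a wide range of levels. Among the most abundant was Scn2b, a sodium channel beta subunit linked to the pore by a disulfide bond, at a mean of 69.6 FPKM over all libraries. Cacng3, a TARP, averaged 67.1 FPKM and Cacnb3, a calcium channel beta subunit, 64.7 FPKM. The pore genes were lower. Scn2a1 led them at 44.1 FPKM, followed by Scn8a at 30.9, Scn1a at 22.7 and Cacna1a at 22 FPKM, and Scn3a at 4.41 and Scn7a at 1.04 FPKM were the lowest of those tested. Exons of Cacna1a, Cacna1d, Cacna1h, Cacna2d2, Cacnb1, Cacnb2, Cacnb4 and Cacng2 overlap exons of other genes on the opposite strand, and those of Cacng8 a miRNA gene on its own strand. The sources used here do not say whether strand was used in counting, so reads of these genes are not certain to be their own.

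**Figure D1:**
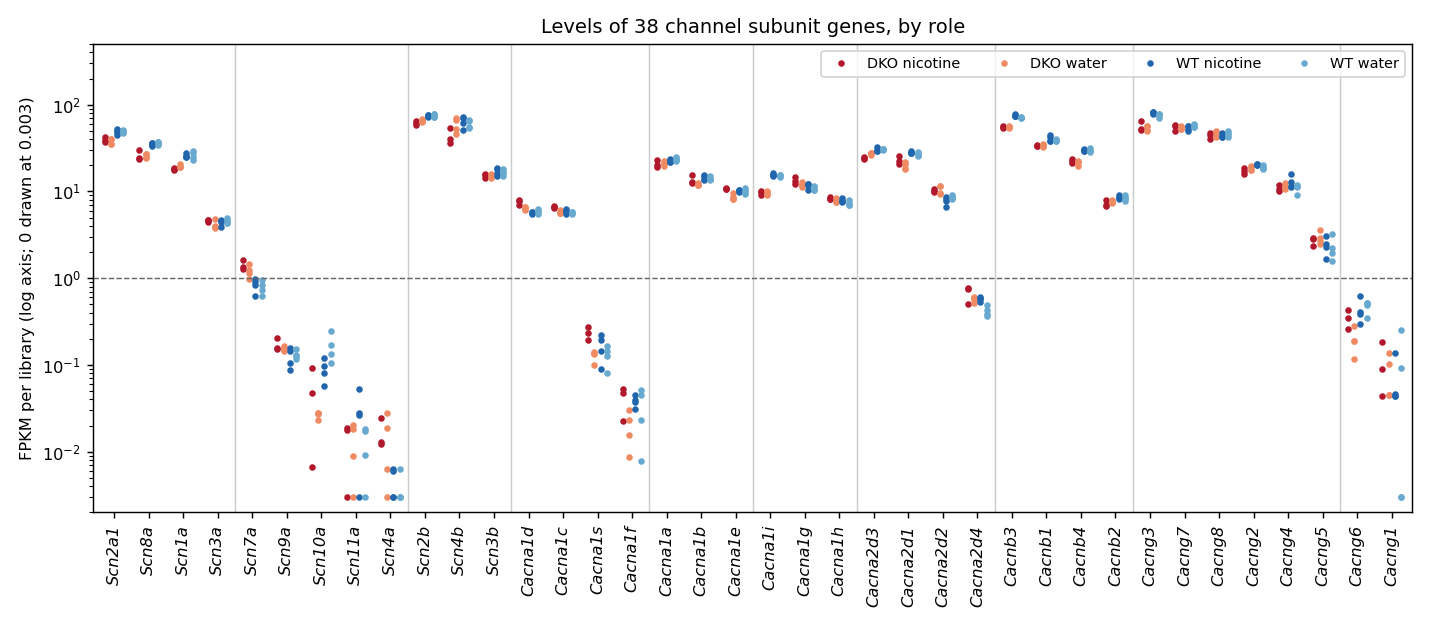
FPKM of 38 subunit genes in each of the 15 libraries (points, log axis), grouped by role between the grey lines, with DKO nicotine, DKO water, WT nicotine and WT water from left to right within a gene. The dashed line is 1 FPKM, the level used for testing, and the genes that were not tested stayed under it.

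The total over all 40 genes was 921.4 to 954.9 FPKM in DKO nicotine, 968.7 to 1005 in DKO water, 1091 to 1151 in WT nicotine and 1111 to 1152 in WT water. Every DKO library was thus below every WT library in summed channel RNA. The same held for the sum of the 4 brain sodium channel pore genes, at 83.4 to 95.6 FPKM in DKO nicotine and 82.2 to 91.3 in DKO water, against 107.2 to 118.8 in WT nicotine and 108.8 to 122.6 in WT water. It held as well for the calcium channel beta subunits, at 114.7 to 121.9 and 116.4 to 119.9 FPKM in DKO nicotine and DKO water, against 152.5 to 156.3 and 146.4 to 151.5 FPKM in WT nicotine and WT water. The alpha2delta and TARP sums did likewise. Over all libraries the sodium channel beta, P/Q-, N- and R-type and T-type sums overlapped between genotypes. Within each regimen, however, the sodium channel beta and T-type sums were lower in every DKO library than in every WT library. The P/Q-, N- and R-type sum was so under water and overlapped under nicotine. The L-type sum went the other way within each regimen, and over all libraries it overlapped as well. It was 13.9 to 15 FPKM in DKO nicotine against 11.2 to 12.1 in WT nicotine, and 12 to 12.9 in DKO water against 11.5 to 11.9 in WT water.

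In mice that drank water, 16 of the 30 tested genes were called between DKO and WT, where 38% of all tested genes were. Of these, 14 were lower in DKO water, where 12.4% of all tested genes were called lower, and 2 were higher, where 25.5% were called higher. One of the 2, Scn7a, passed the filter only through DKO libraries and so had to differ, which also holds for its place in the counts of higher calls that follow. The groups did not overlap for 14 of the 30 genes, beside 36.5% of all tested genes. The median log2 fold change over the 30 genes was -0.13, beside 0.05 over all tested genes. The 14 that fell include 3 of the 4 brain sodium channel pores, all 3 pores of the P/Q-, N- and R-type family, 3 of the 4 calcium channel beta subunits and 1 of the 6 TARPs. Another scaling of the libraries moved the split: median-of-ratios rescaling gave 18 lower and 2 higher, and scaling by pan-neuronal markers 8 lower and 6 higher. Over all tested genes there were 3252 higher and 1584 lower calls with no rescaling, 2430 higher and 2341 lower after median-of-ratios rescaling, and 5670 higher and 755 lower after scaling by pan-neuronal markers.

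In mice that took nicotine, 20 of the 30 were called, where 35.7% of all tested genes were. There were 15 lower in DKO nicotine, where 11% of all tested genes were called lower, and 5 higher, where 24.6% were. The groups did not overlap for 20 of the 30, beside 37.7% of all tested genes. The median was -0.20, beside 0.06 over all tested genes, and the split was 17 lower and 3 higher after median-of-ratios rescaling and 13 lower and 8 higher after scaling by pan-neuronal markers. Over all tested genes there were 3133 higher and 1405 lower calls with no rescaling, 2142 and 2217 after median-of-ratios rescaling, and 5819 and 676 after scaling by pan-neuronal markers. The comparisons under water and under nicotine use separate libraries.

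**Figure D2:**
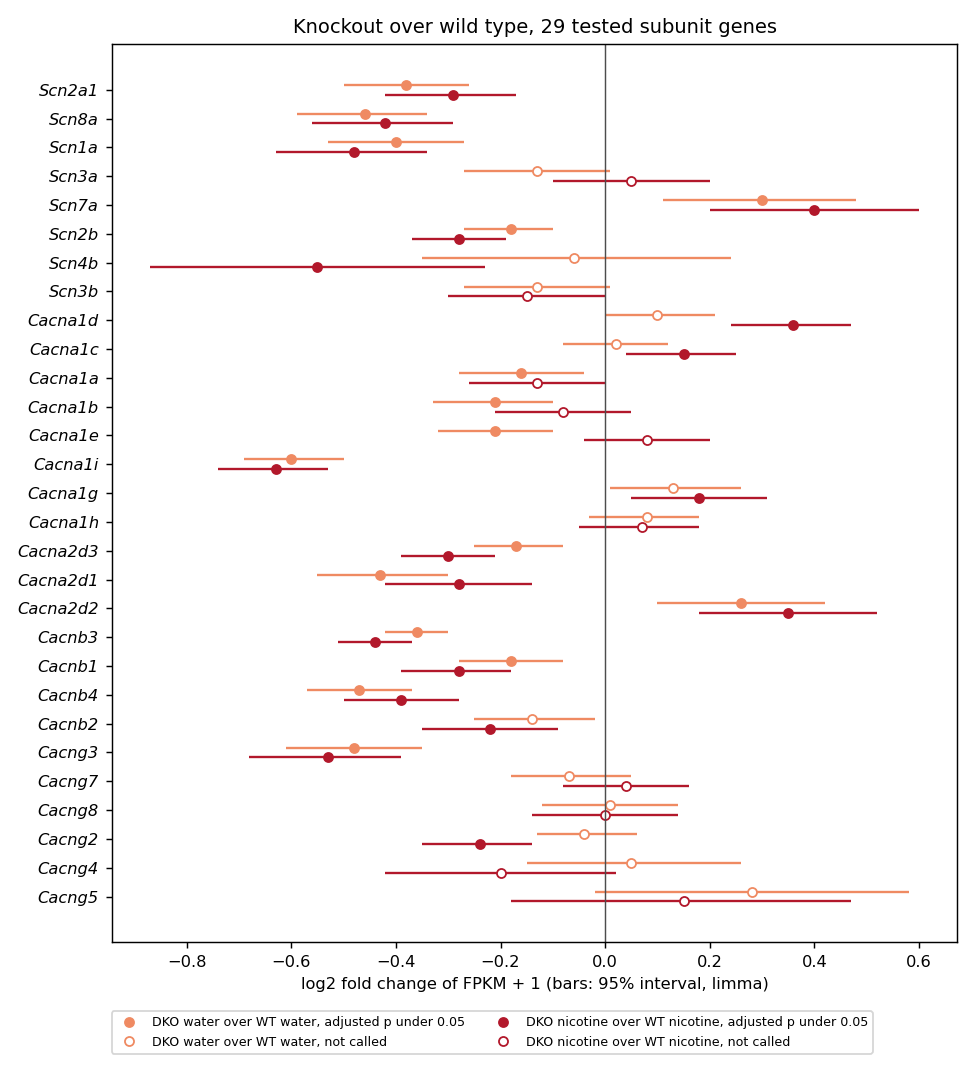
Fold change of DKO over WT on the log2(FPKM + 1) scale for 29 tested genes, by role, with 95% intervals from limma, under water (upper point of each pair) and under nicotine (lower point). Filled points are called, and the fall of Cacna1i (-0.60 under water, -0.63 under nicotine) lies farthest to the left in both.

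Among the brain sodium channel pores, Scn2a1, Scn8a and Scn1a fell in the knockout and Scn3a was not called. Scn2a1 (annotated as Scn2a in RefSeq; chromosome 2, 65620764 to 65767447) encodes the pore of young axons and of many excitatory neurons. It was at 37.3, 42.6 and 39 FPKM in DKO nicotine, 35.2, 35.4, 39.7 and 40.4 in DKO water, 50.1, 44.8, 48.1 and 52.3 in WT nicotine and 48.4, 47.3, 50.3 and 51.4 in WT water. All 7 DKO libraries lay below all 8 WT libraries. On the log2 scale the change was -0.38 (SE 0.06, adjusted p = 5.22e-05) under water and -0.29 (SE 0.06, adjusted p = 0.00131) under nicotine.

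Scn8a (chromosome 15, 100869863 to 101045938) encodes the main pore of the mature axon initial segment and the nodes of Ranvier. It was at 24.2, 29.7 and 23.9 FPKM in DKO nicotine, 24.3, 24.6, 26.9 and 26.8 in DKO water, 36.5, 33.6, 34.1 and 35.7 in WT nicotine and 36.7, 34.1, 35.4 and 36.8 in WT water. DKO libraries were again below WT libraries throughout. DKO nicotine replicate 2, whose Y-linked genes summed to 0.233 FPKM, stood above the other DKO nicotine libraries, and the part of that Y-linked difference was not tested. The log2 fold change was -0.46 (SE 0.06, adjusted p = 9.35e-06) under water and -0.42 (SE 0.06, adjusted p = 6.8e-05) under nicotine.

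Scn1a (chromosome 2, 66270781 to 66440837), whose pore is prominent in fast-spiking interneurons, was at 17.5, 18.6 and 18.3 FPKM in DKO nicotine, 18.9, 19.3, 20.9 and 19 in DKO water, 27.8, 24.9, 25.6 and 24.9 in WT nicotine and 27.7, 23, 24.7 and 29.6 in WT water. No DKO library reached the lowest WT library. Limma gave -0.40 (SE 0.06, adjusted p = 9.53e-05) under water and -0.48 (SE 0.07, adjusted p = 3.88e-05) under nicotine. None of the 19 tested inhibitory neuron markers was called lower, beside 12.4% of all tested genes under water and 11% under nicotine. What part inhibitory neurons have in the Scn1a values was not tested.

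Scn3a, the pore prominent in developing brain, averaged 4.6 ± 0.184 FPKM in DKO nicotine (SD, n = 3), 4.09 ± 0.444 in DKO water, 4.43 ± 0.35 in WT nicotine and 4.56 ± 0.297 in WT water (SD, n = 4 each). It was not called under water (log2 fold change -0.13, 95% interval -0.27 to 0.01) or under nicotine (0.05, -0.10 to 0.20). Its share of the summed FPKM of the 4 pores, a measure free of library scaling, was 4.91% to 5.49% in DKO nicotine and 4.22% to 5.22% in DKO water, against 3.65% to 4.11% in WT nicotine and 3.66% to 4.08% in WT water. These shares, given without a test, did not overlap between genotypes. A share depends on the whole sum, and the other genes in it, Scn2a1, Scn8a and Scn1a, were called lower. The shares therefore do not show a rise of Scn3a itself.

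The sodium channel pores known from muscle, heart and peripheral nerve were near or below 1 FPKM. Only Scn7a (chromosome 2, 66673426 to 66784910), which encodes an atypical sodium-sensing channel of glia, was tested, and it passed the filter only through DKO libraries. It was at 1.28, 1.34 and 1.64 FPKM in DKO nicotine, 0.989 to 1.44 in DKO water, 0.902, 0.625, 0.982 and 0.83 in WT nicotine and 0.845, 0.625, 0.96 and 0.733 in WT water, on 82 to 224 reads. Each DKO library was above each WT library. The difference was 0.30 on the log2 scale under water and 0.40 under nicotine, given without a test because the filter fixed its direction, and with a pseudocount of 0.1 in place of 1 it was 0.55 under water and 0.71 under nicotine. Summed astrocyte markers and summed microglia and macrophage markers were also higher in each DKO library than in each WT library. The other glial sums overlapped. Oligodendrocyte markers were at 1191 FPKM in DKO nicotine replicate 2 against 1277 in WT water replicate 1. Precursor markers were at 151.6 in DKO nicotine replicate 1 against 152.8 in WT nicotine replicate 1. What part glial cells have in the Scn7a values was not tested.

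Of the beta subunits of sodium channels, Scn2b fell under both regimens. It was at 61, 65 and 57.8 FPKM in DKO nicotine, 64.9, 66.1, 68.9 and 63.3 in DKO water, 72.1, 76.6, 74 and 75 in WT nicotine and 77.3, 71.6, 77.3 and 72.8 in WT water, with DKO libraries all below WT libraries. The difference on the log2 scale was -0.18 (SE 0.04, adjusted p = 0.00208) under water and -0.28 (SE 0.04, adjusted p = 0.000123) under nicotine, and the water call was lost with pan-neuronal scaling (-0.08, adjusted p = 0.088).

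Scn3b averaged 15.2 ± 0.822 FPKM in DKO nicotine (SD, n = 3), 15 ± 0.821 in DKO water, 17.1 ± 1.77 in WT nicotine and 16.6 ± 1.26 in WT water (SD, n = 4 each), and it was not called in either genotype comparison (-0.13, 95% interval -0.27 to 0.01, under water and -0.15, -0.30 to 0.00, under nicotine). Scn4b, which supports resurgent sodium current and is abundant in striatum, was at 53.1, 36.4 and 39.9 FPKM in DKO nicotine, 52.9, 69.4, 45.3 and 66.2 in DKO water, 50.5, 61, 69.5 and 72.9 in WT nicotine and 67, 54.8, 65.5 and 53.7 in WT water. It varied more within a group than Scn2b and Scn3b did. Scn4b was called lower under nicotine, -0.55 (SE 0.15, adjusted p = 0.00986), although the groups overlapped, and without DKO nicotine replicate 2 the adjusted p was 0.052. Under water it was not called (-0.06, 95% interval -0.35 to 0.24). Of 14 tested striatal markers, 8 were called higher and 1 lower in DKO water, beside 25.5% and 12.4% of all tested genes. In DKO nicotine 1 was called higher and 1 lower, beside 24.6% and 11% of all tested genes. None of the 15 listed was at 0 in every library. Summed striatal markers were at 318.9, 223.6 and 318.2 FPKM in the DKO nicotine libraries, 359.5, 447.3, 267.4 and 433.8 in DKO water, 192.8, 227.5, 305.7 and 330.2 in WT nicotine and 251.2, 230.3, 262.5 and 186.8 in WT water. In DKO nicotine, DKO water and WT nicotine the libraries stood in the same order for Scn4b and for these markers, which do not include Scn4b, and the part of striatal tissue in the Scn4b values was not tested.

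**Figure D3:**
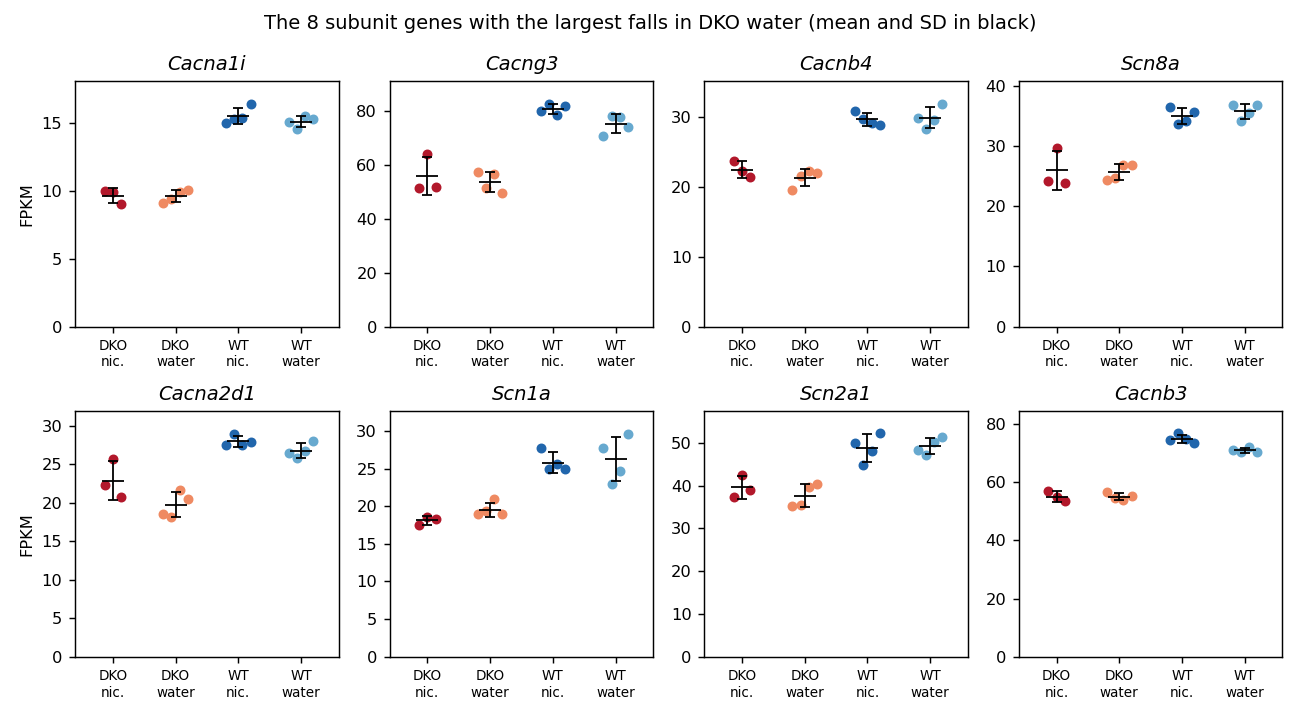
FPKM per library of the 8 subunit genes with the largest falls in DKO water, in DKO nicotine, DKO water, WT nicotine and WT water (points), with the group mean and SD in black and the axis from 0. In each of the 8 panels the DKO points lie below the WT points.

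The largest fall lay in the T-type family. Cacna1i (chromosome 15, 80287238 to 80398292), a pore known for rhythmic bursting in the thalamic reticular nucleus and also present in cortex, was at 10, 9.96 and 9.01 FPKM in DKO nicotine, 9.11, 9.4, 9.95 and 10.1 in DKO water, 15, 15.3, 15.4 and 16.4 in WT nicotine and 15.1, 14.6, 15.5 and 15.3 in WT water. The mean fell by 36.2% under water and by 37.8% under nicotine, with a wide gap between DKO and WT libraries. On the log2 scale the change was -0.60 (SE 0.05, adjusted p = 2.8e-08) under water and -0.63 (SE 0.05, adjusted p = 4.6e-08) under nicotine. It was called in all 24 alternative fits of each comparison, with log2 fold changes of -0.65 to -0.50 under water and -0.70 to -0.53 under nicotine.

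Neither of the other T-type pores was called lower. Cacna1g, the pore of thalamic relay neurons, averaged 13.4 ± 1.15 FPKM in DKO nicotine (SD, n = 3), 12 ± 0.591 in DKO water, 11.7 ± 0.877 in WT nicotine and 10.9 ± 0.427 in WT water (SD, n = 4 each). Its fold change was 0.13 under water (95% interval 0.01 to 0.26, adjusted p = 0.0829) and it was called higher under nicotine, 0.18 (SE 0.06, adjusted p = 0.0352), a call missed in 5 of 24 alternative fits, among them those without DKO nicotine replicate 2 or 3 and without WT nicotine replicate 2. Cacna1h, the remaining T-type pore, averaged 8.3 ± 0.213 FPKM in DKO nicotine (SD, n = 3), 7.79 ± 0.344 in DKO water, 7.89 ± 0.352 in WT nicotine and 7.35 ± 0.475 in WT water (SD, n = 4 each), with fold changes of 0.08 (95% interval -0.03 to 0.18) under water and 0.07 (-0.05 to 0.18) under nicotine.

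The make-up of the T-type sum differed by genotype, as a description with no test. Cacna1i held 29.7% to 32.4% of it in DKO nicotine and 32.3% to 33.7% in DKO water, against 42.7% to 45.9% in WT nicotine and 44.8% to 45.6% in WT water. Cacna1g held 39.9% to 44.6% in DKO nicotine and 40% to 41.7% in DKO water, against 31.2% to 34.7% in WT nicotine and 30.9% to 33.8% in WT water. Cacna1h, though not called, held 25% to 27.7% in DKO nicotine and 25.7% to 27.4% in DKO water. Its share was 21.6% to 23.3% in WT nicotine and 20.9% to 23.5% in WT water. None of the 3 shares overlapped between DKO and WT, and within a sum a lower share of 1 gene raises those of the others. Cacna1g was the largest of the 3 in every DKO library while Cacna1i was the largest in every WT library.

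**Figure D4:**
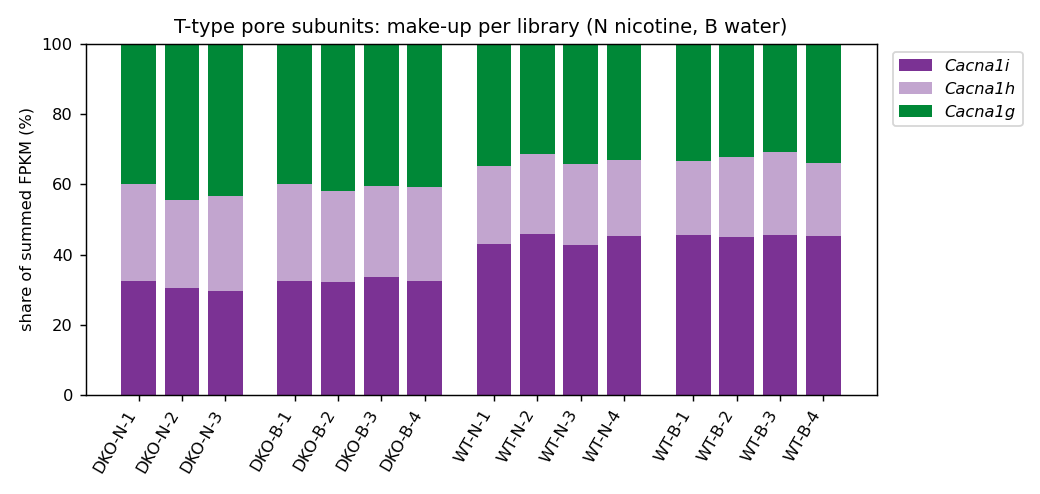
Share of the summed FPKM of the 3 T-type pore genes held by Cacna1i, Cacna1h and Cacna1g in each library (stacked bars, percent, from 0 to 100). Cacna1i spans 29.7% to 33.7% in the 7 DKO libraries and 42.7% to 45.9% in the 8 WT libraries.

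The P/Q-, N- and R-type pores, which couple to transmitter release, fell together in DKO water by smaller amounts. Cacna1a, the P/Q-type pore, averaged 20.8 ± 2.01 FPKM in DKO nicotine (SD, n = 3), 20.8 ± 1.19 in DKO water, 22.8 ± 0.957 in WT nicotine and 23.4 ± 1.13 in WT water (SD, n = 4 each), and its fold change under water was -0.16 (SE 0.06, adjusted p = 0.0293). Cacna1b, the N-type pore, averaged 13.6 ± 1.49 FPKM in DKO nicotine (SD, n = 3), 12 ± 0.376 in DKO water, 14.5 ± 0.825 in WT nicotine and 14.1 ± 0.601 in WT water (SD, n = 4 each), with -0.21 (SE 0.06, adjusted p = 0.0063). Cacna1e, the R-type pore, averaged 10.8 ± 0.188 FPKM in DKO nicotine (SD, n = 3), 8.62 ± 0.69 in DKO water, 10.2 ± 0.209 in WT nicotine and 10.1 ± 0.706 in WT water (SD, n = 4 each), with -0.21 (SE 0.05, adjusted p = 0.00545). The water groups overlapped for Cacna1a and Cacna1e and not for Cacna1b. The Cacna1a call did not hold without WT water replicate 1 or 4 or without DKO water replicate 2 or 4, and with pan-neuronal scaling all 3 calls were lost (-0.06 for Cacna1a, -0.12 for Cacna1b and -0.12 for Cacna1e). Under nicotine none of the 3 was called, with fold changes of -0.13 (95% interval -0.26 to -0.00) for Cacna1a, -0.08 (-0.21 to 0.05) for Cacna1b and 0.08 (-0.04 to 0.20) for Cacna1e.

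The L-type pores gave no call under water and 2 under nicotine. Cacna1d was at 7.86, 7.79 and 6.92 FPKM in DKO nicotine, 6.28, 6.56, 6.11 and 6.61 in DKO water, 5.64, 5.42, 5.73 and 5.78 in WT nicotine and 5.87, 5.9, 5.49 and 6.27 in WT water. The DKO nicotine libraries were the highest 3 of the 15. Cacna1d rose by 0.36 (SE 0.05, adjusted p = 8.24e-05) on the log2 scale under nicotine, and under water its value was 0.10 (95% interval -0.00 to 0.21). Its exons overlap those of Chdh.

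Cacna1c, the major L-type pore of brain and heart, averaged 6.65 ± 0.236 FPKM in DKO nicotine (SD, n = 3), 5.79 ± 0.25 in DKO water, 5.91 ± 0.293 in WT nicotine and 5.69 ± 0.172 in WT water (SD, n = 4 each). It was called higher under nicotine, 0.15 (SE 0.05, adjusted p = 0.0322), and not under water (0.02, 95% interval -0.08 to 0.12). The nicotine call was missed in 6 of 24 alternative fits, among them those without DKO nicotine replicate 2 or 3 and without WT nicotine replicate 2 or 3.

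The alpha2delta subunits moved in both directions. Cacna2d1 (chromosome 5, 15934264 to 16374511), the subunit that binds gabapentin, was at 22.3, 25.7 and 20.7 FPKM in DKO nicotine, 18.6, 18.2, 21.7 and 20.5 in DKO water, 27.5, 29, 27.5 and 27.9 in WT nicotine and 26.5, 25.8, 26.8 and 28.1 in WT water. DKO libraries were below WT libraries throughout, most clearly under water. The log2 fold change was -0.43 (SE 0.06, adjusted p = 3.55e-05) under water and -0.28 (SE 0.07, adjusted p = 0.00299) under nicotine.

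Cacna2d3 was at 25.2, 23.5 and 24.3 FPKM in DKO nicotine, 27.7, 27.5, 26.5 and 27.9 in DKO water, 29.1, 29.1, 32.9 and 29.9 in WT nicotine and 30.2, 30.9, 31.2 and 31.1 in WT water. All DKO libraries were below all WT libraries, and the DKO nicotine libraries were the lowest 3. Limma gave -0.17 (SE 0.04, adjusted p = 0.00337) under water, lost with pan-neuronal scaling (-0.07), and -0.30 (SE 0.04, adjusted p = 4.18e-05) under nicotine.

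Cacna2d2 (chromosome 9, 107399733 to 107529346), prominent in cerebellar Purkinje cells and some interneurons, was at 10.2, 9.77 and 10.6 FPKM in DKO nicotine, 9.48, 11.4, 9.28 and 11.6 in DKO water, 7.76, 6.68, 8.08 and 8.62 in WT nicotine and 8.98, 8.82, 8.07 and 8.29 in WT water. It was higher in each DKO library than in each WT library. Cacna2d2 rose by 0.26 (SE 0.07, adjusted p = 0.012) on the log2 scale under water and by 0.35 (SE 0.08, adjusted p = 0.00277) under nicotine. Its share of the alpha2delta sum was 16.3% to 18.8% in DKO nicotine and 16% to 19.8% in DKO water, against 10.2% to 12.9% in WT nicotine and 12.1% to 13.6% in WT water.

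Of the intracellular beta subunits of calcium channels, which bind the pore and carry it to the membrane, Cacnb3 had the smallest p in DKO nicotine against WT nicotine among the 30. Cacnb3 (chromosome 15, 98628436 to 98644536) was at 57, 54.9 and 53.4 FPKM in DKO nicotine, 56.6, 54.7, 53.8 and 55.3 in DKO water, 74.6, 77, 74.8 and 73.6 in WT nicotine and 71.1, 70.4, 72 and 70.4 in WT water. Spread within a group was small, and the lowest WT library lay well above the highest DKO library. The difference on the log2 scale was -0.36 (SE 0.03, adjusted p = 9.07e-08) under water and -0.44 (SE 0.03, adjusted p = 2.93e-08) under nicotine.

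Cacnb4 (chromosome 2, 52428320 to 52676609), mutated in the epileptic lethargic mouse, was at 23.8, 22.3 and 21.5 FPKM in DKO nicotine, 19.6, 21.6, 22.3 and 22 in DKO water, 31, 29.8, 29.2 and 28.9 in WT nicotine and 29.9, 28.4, 29.6 and 32 in WT water. Its groups did not overlap either. On the log2 scale the change was -0.47 (SE 0.05, adjusted p = 8.67e-07) under water and -0.39 (SE 0.05, adjusted p = 1.99e-05) under nicotine.

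Cacnb1 and Cacnb2 changed less. Cacnb1 averaged 33.5 ± 0.737 FPKM in DKO nicotine (SD, n = 3), 34.2 ± 1.21 in DKO water, 41.1 ± 3.13 in WT nicotine and 38.8 ± 1.43 in WT water (SD, n = 4 each) and was called lower in both genotype comparisons, -0.18 (SE 0.05, adjusted p = 0.00665) under water and -0.28 (SE 0.05, adjusted p = 0.000399) under nicotine. The water call was lost with pan-neuronal scaling (-0.08). Cacnb2 averaged 7.24 ± 0.672 FPKM in DKO nicotine (SD, n = 3), 7.61 ± 0.292 in DKO water, 8.58 ± 0.332 in WT nicotine and 8.47 ± 0.585 in WT water (SD, n = 4 each) and was called lower under nicotine, -0.22 (SE 0.06, adjusted p = 0.0093), a call lost without DKO nicotine replicate 3 and with pan-neuronal scaling, and not under water (-0.14, 95% interval -0.25 to -0.02).

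Among the TARPs, Cacng3 fell under both regimens, Cacng2 was called lower under nicotine, and the other 4 were not called. Cacng3 (chromosome 7, 122671744 to 122769393), expressed mainly in forebrain, was at 51.5, 64 and 51.9 FPKM in DKO nicotine, 57.3, 51.5, 56.6 and 49.7 in DKO water, 80.1, 82.7, 78.5 and 81.9 in WT nicotine and 70.8, 78.2, 77.9 and 74 in WT water. The highest DKO library, DKO nicotine replicate 2 (Y-linked sum 0.233 FPKM), was still below the lowest WT library. The log2 fold change was -0.48 (SE 0.06, adjusted p = 1.34e-05) under water and -0.53 (SE 0.07, adjusted p = 1.23e-05) under nicotine. Cacng3 held 27.7% to 33.4% of the TARP sum in DKO nicotine and 27.2% to 30.2% in DKO water, against 37.3% to 38.4% in WT nicotine and 34.5% to 36.5% in WT water.

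Cacng2, known as stargazin from the stargazer mouse, was at 15.9, 18.5 and 17.3 FPKM in DKO nicotine, 17.8, 19.4, 19.1 and 17.7 in DKO water, 20.8, 20.4, 20.3 and 20.9 in WT nicotine and 19.1, 18.3, 18.8 and 19.9 in WT water. The WT nicotine libraries were the highest 4. Cacng2 was called lower under nicotine, -0.24 (SE 0.05, adjusted p = 0.00106), and was not called under water (-0.04, 95% interval -0.13 to 0.06). Cacng7 averaged 55.3 ± 4.55 FPKM in DKO nicotine (SD, n = 3), 54.5 ± 1.9 in DKO water, 53.9 ± 3.92 in WT nicotine and 57 ± 2 in WT water (SD, n = 4 each). Cacng8, a hippocampal and cortical TARP, averaged 44.1 ± 3.99 FPKM in DKO nicotine (SD, n = 3), 46.3 ± 2.89 in DKO water, 44.1 ± 2.6 in WT nicotine and 45.9 ± 2.79 in WT water (SD, n = 4 each). Neither was called, with fold changes under water of -0.07 (95% interval -0.18 to 0.05) for Cacng7 and 0.01 (-0.12 to 0.14) for Cacng8, and under nicotine of 0.04 (-0.08 to 0.16) and -0.00 (-0.14 to 0.14). Cacng4, also a marker of oligodendrocyte precursors, had 0.05 (95% interval -0.15 to 0.26) under water and -0.20 (-0.42 to 0.02) under nicotine. Cacng5, at 1.57 to 3.62 FPKM over all libraries, had 0.28 (95% interval -0.02 to 0.58) under water and 0.15 (-0.18 to 0.47) under nicotine.

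The 10 genes under the filter are mostly known from other tissues. They include Scn4a and Cacna1s of skeletal muscle, Scn9a, Scn10a and Scn11a of sensory neurons, Cacna1f and Cacna2d4 of retina, Cacng1 of skeletal muscle and Cacng6. Their means over all libraries ran from 0.00807 FPKM for Scn4a to 0.553 FPKM for Cacna2d4. With no filter, 3 were called in DKO water against WT water, where 28.4% of all 18118 genes then tested were called. Scn10a had 4, 4, 4 and 3 reads in DKO water against 20, 15, 38 and 24 in WT water (log2 fold change -0.18, adjusted p = 0.0012), while its DKO nicotine libraries had 13, 1 and 7 reads against 18, 8, 14 and 12 in WT nicotine (-0.05, adjusted p = 0.305). Cacng6 had 13, 9, 9 and 5 reads in DKO water against 17, 24, 26 and 23 in WT water (-0.30, adjusted p = 0.0034), and under nicotine it was not called (-0.08, adjusted p = 0.442). Cacna2d4 had 59, 56, 65 and 58 reads in DKO water against 41, 45, 44 and 52 in WT water (0.15, adjusted p = 0.0341), and under nicotine it was not called (0.08, adjusted p = 0.257). These differences stand on few reads.

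Nicotine by itself gave no call among the 30 genes in either genotype. In WT nicotine against WT water limma called 0 of 30, beside 0.173% of all tested genes, and 2 of 30 had an unadjusted p under 0.05, beside 8.7% of all tested genes. Limma voom on the reads behind the FPKM also called 0. The smallest p-values were those of Cacnb3, with 0.08 (SE 0.03, adjusted p = 0.479) on the log2 scale, Cacng2 with 0.11 (SE 0.05, adjusted p = 0.516) and Cacng4 with 0.20 (SE 0.10, adjusted p = 0.578). For Cacng4, at 11.4, 11.1, 12.7 and 16 FPKM in WT nicotine against 11.8, 11.2, 11.6 and 9.18 in WT water, the groups overlapped. The groups did not overlap for 3 of 30 genes, beside 5.8% of all tested genes, and in these, Cacnb3, Cacng2 and Cacng3, each WT nicotine library was above each WT water library. Intervals for the sodium channel pores were narrow: Scn2a1 differed by -0.02 (95% interval -0.14 to 0.10), Scn8a by -0.03 (-0.15 to 0.09) and Scn1a by -0.02 (-0.15 to 0.11).

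In DKO nicotine against DKO water limma called 0 of 30, where 0.157% of all tested genes were called, and 10 of 30 had an unadjusted p under 0.05, beside 13.9% of all tested genes. Limma voom on the reads behind the FPKM called 2, Cacna1e and Cacna1d. Cacna1e, the R-type pore, was at 11, 10.6 and 10.8 FPKM in DKO nicotine, 8.1, 8.13, 8.67 and 9.57 in DKO water, 10.3, 9.87, 10.1 and 10.3 in WT nicotine and 9.78, 10.9, 9.3 and 10.5 in WT water. The DKO nicotine libraries were all above the DKO water libraries and in the range of the WT libraries or just over it. The difference was 0.30 on the log2 scale (SE 0.06, 95% interval 0.18 to 0.42), with an adjusted p of 0.0519 that ran from 0.00892 to 0.277 over 24 alternative fits. It was called with a filter at 5 FPKM (adjusted p = 0.0392), without DKO water replicate 4 (0.0279) and without WT water replicate 3 (0.0474). The other 2 with the smallest p were Cacna2d3, with -0.17 (SE 0.04, adjusted p = 0.123), and Cacna1d, with 0.21 (SE 0.05, adjusted p = 0.131). In all 3 the DKO nicotine and DKO water libraries did not overlap, which was so for 6 of the 30 genes (Cacna1b, Cacna1c and Scn1a besides these 3) and for 10.9% of all tested genes. Cacna1i differed by 0.00 (95% interval -0.10 to 0.11), Cacnb3 by -0.00 (-0.07 to 0.07) and Scn8a by 0.01 (-0.12 to 0.14).

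**Figure D5:**
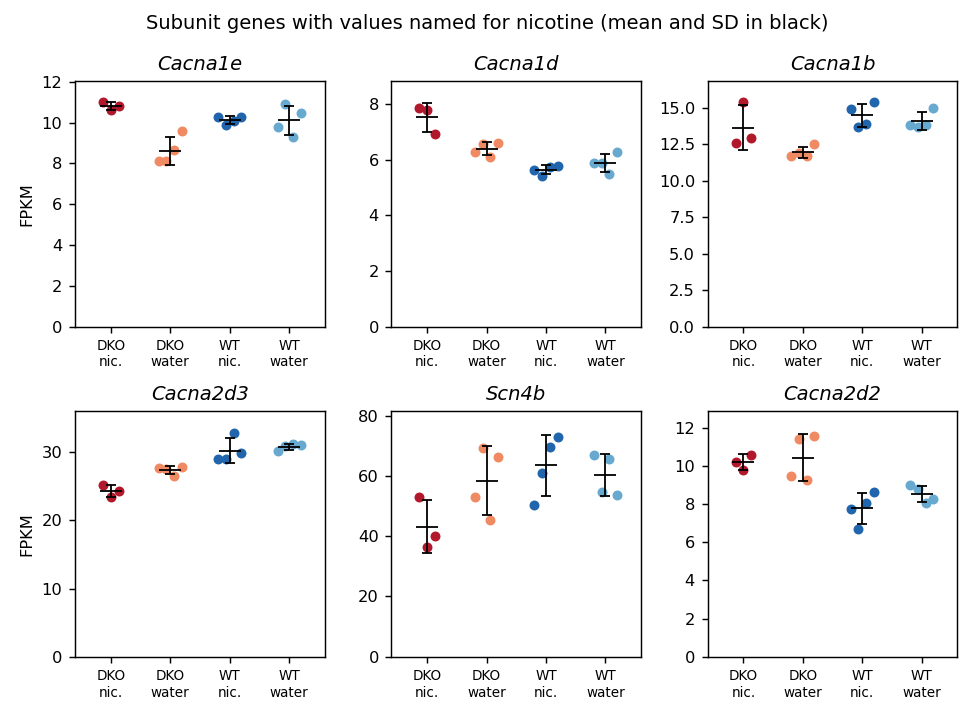
FPKM per library of Cacna1e, Cacna1d, Cacna1b, Cacna2d3, Scn4b and Cacna2d2 in DKO nicotine, DKO water, WT nicotine and WT water (points), with the group mean and SD in black and the axis from 0. The 3 DKO nicotine libraries of Cacna1e (10.6 to 11 FPKM) lie above the 4 DKO water libraries (8.1 to 9.57 FPKM), and those of Cacna2d3 (23.5 to 25.2 FPKM) lie below theirs (26.5 to 27.9 FPKM).

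Whether the response to nicotine differed between genotypes was tested as the difference of the differences. Limma called 0 of the 30 genes, where 0.0157% of all tested genes were called, and 5 of 30 had an unadjusted p under 0.05, beside 6.9% of all tested genes; limma voom called 0. The smallest p-values were those of Cacna1e, with 0.29 (SE 0.08, adjusted p = 0.576), Cacna1d, with 0.26 (SE 0.07, adjusted p = 0.581), and Cacng2, with -0.21 (SE 0.07, adjusted p = 0.657). A call under one regimen and none under the other, as for Cacna1d, Cacng2 and Scn4b, is therefore not shown to be a difference between regimens.

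DKO nicotine against WT water, the comparison across both factors, called 22 of 30 genes, where 37.5% of all tested genes were called. There were 16 lower, beside 11.8% of all tested genes, and 6 higher, beside 25.7%. The 6 were Cacna1c (0.19), Cacna1d (0.31), Cacna1g (0.27), Cacna1h (0.16), Cacna2d2 (0.23) and Scn7a (0.43, which had to differ). Over 24 alternative fits the Cacna1c call was lost in 1, the Cacna1h call in 5 and the Cacna2d2 call in 6, among them those with median-of-ratios rescaling for each of the 3. Leaving out WT water replicate 4 or DKO nicotine replicate 1 ended the calls of Cacna1h and Cacna2d2, leaving out WT water replicate 1 that of Cacna1h, and leaving out WT water replicate 3 or DKO nicotine replicate 3 that of Cacna2d2. Of the 16 falls, those of Cacna1a, Cacna2d1, Cacnb1, Cacnb2, Cacng2 and Scn4b were missed in 1 to 11 of those fits. The largest falls were those of Cacna1i, -0.60 (SE 0.05, adjusted p = 9.37e-08), and Scn1a, -0.50 (SE 0.07, adjusted p = 2.34e-05). Scaling by pan-neuronal markers gave 10 lower and 7 higher, and median-of-ratios rescaling 16 lower and 3 higher. Of all 12728 tested genes, 6576 were called higher and 600 lower after scaling by pan-neuronal markers. The numbers were 2285 and 2293 after median-of-ratios rescaling, and 3275 and 1496 with no rescaling. This comparison shares libraries with the others and is no independent support for them.

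Genes that bind, anchor or regulate these channels were taken from a list of 42, of which 41 stood in the tables and 39 were tested. In DKO water 19 of the 39 were called lower and 6 higher than in WT water, beside 12.4% and 25.5% of all tested genes. In DKO nicotine 14 were lower and 5 higher than in WT nicotine, beside 11% and 24.6%. Their median log2 fold changes were -0.09 under water and -0.07 under nicotine, and 1 listed gene was at 0 in every library. Fgf13, an intracellular partner of sodium channels, averaged 26.8 ± 1.14 FPKM (SD, n = 3) in DKO nicotine and 25 ± 1.39 in DKO water, against 41.6 ± 0.674 in WT nicotine and 40.2 ± 1.5 in WT water (SD, n = 4 each). It fell by 0.66 (SE 0.04, adjusted p = 2.94e-09) on the log2 scale under water and by 0.62 (SE 0.04, adjusted p = 2.4e-08) under nicotine. Ank3, the anchor of sodium channels at the axon initial segment, fell by 0.36 under water (SE 0.05, adjusted p = 1.48e-05), and Calm2, a gene for the calcium sensor calmodulin, by 0.31 (SE 0.04, adjusted p = 3.86e-06). Rimbp2, which links calcium channels to the release site, rose by 0.42 (SE 0.05, adjusted p = 9.07e-06) under water and 0.52 (SE 0.06, adjusted p = 2.04e-06) under nicotine. Under nicotine Prnp, the prion protein gene and an alpha2delta partner, rose by 0.28 (SE 0.03, adjusted p = 2.91e-06) and Calm2 fell by 0.34 (SE 0.04, adjusted p = 4.14e-06). Across this list too, partners of a channel moved in both directions.

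Several of the genes lie close together in the genome. On chromosome 2, Scn3a, Scn2a1, Scn1a, Scn9a and Scn7a follow each other, and within that row Scn2a1 and Scn1a fell, Scn3a was not called and Scn9a was too low to be tested. Scn7a, which passed the filter only through DKO libraries, stood higher in each DKO library than in each WT library. On chromosome 9, Scn2b and Scn4b are 8.55 kb apart, and under water the first was called lower and the second was not called. Under nicotine both were called lower. On chromosome 11, Cacng4 and Cacng5 are neighbours, and neither was called. On chromosome 7, Cacng7 and Cacng8, 25.8 kb apart, were not called either.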

How the data were processed

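Poly(A) RNA from 15 mouse cortex samples was sequenced. TRIzol was used for extraction and the TruSeq Stranded mRNA LT kit for the libraries, per the labels' protocols. The authors deposited 1 table of FPKM per library, per the file headers, and the submitters' processing notes name build GRCm38.p6. The sources used here name no aligner or counter and do not state whether strand was used in counting. Of 21878 genes, 3760 are listed at 0 throughout, 27 gene names that had been turned into dates were restored, and mitochondrial genes were not analysed here.

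The deposited FPKM values stepped by whole reads. In tested genes 100% of the values gave whole reads within 0.02 reads, with 16334904 to 19469215 reads in genes per library, and precision at low levels is limited by those reads. Values were tested as log2(FPKM + 1) with limma and an intensity trend, in 1 fit of all 15 libraries with a term per group, on the 12728 genes at or above 1 FPKM in at least 3 libraries. P-values were adjusted by Benjamini-Hochberg over all of them. FPKM were tested with limma because a count model does not suit them, and limma voom on the recovered reads was an alternative. Other alternatives were 2 rescalings, 2 filters, a pseudocount of 0.1, no trend, a fit of 2 groups alone, a block for replicate number, a minimum change of 25% and leaving out each library. The code was tested on simulated data. Python 3.11.15, pandas 2.3.3, numpy 2.4.6, matplotlib 3.10.9, R 4.3.3 and limma 3.58.1 were used.

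The genes, the partner and marker lists and the tests were chosen with earlier results of these data known. Per-library values were given for up to the 8 largest rises and falls called between the water groups and for the highest means. They were also given for the 3 smallest p-values of each nicotine comparison and of the interaction. These rules took in Scn2b, Cacna1d, Cacna2d3 and Cacng2, and Scn4b was added after its values were seen. Up to 4 partners with the smallest p were named per genotype comparison. Exon overlaps come from GENCODE M21, and symbols and upstream windows from RefSeq. Values of 2 of the genes are not reported here, though they stay in the counts and sums.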

Additional observations from a re-analysis of the deposited data

How the results depend on the processing

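With a minimum change of 25% in fold added to the threshold, 8 subunit genes were called in DKO water against WT water, 10 in DKO nicotine against WT nicotine and 9 in DKO nicotine against WT water, where 16, 20 and 22 were called without it. Of all tested genes 15.1%, 15% and 15.9% were called with it. The 8 were all falls in DKO water, and Cacna2d2 lost its call. In DKO nicotine against DKO water, where 0 were called, a filter at 5 FPKM gave 1 (27 genes tested, 0.246% of all genes called), limma voom gave 2 (0.684%), and leaving out 1 library gave 0 to 1 (0.00787% to 0.449%), with 1 without WT water replicate 3 or DKO water replicate 4. Leaving out 1 library gave 15 to 17 calls in DKO water against WT water (32% to 38.9% of all tested genes), 16 to 20 in DKO nicotine against WT nicotine (27% to 35.6%) and 16 to 22 in DKO nicotine against WT water (29.4% to 37.4%). No named log2 fold change that was called turned round in the alternatives run, and 774 of their values stayed on the same side of the threshold, 6 passed it newly and 7 no longer did. Cacna1i, Cacng3, Cacnb4, Scn8a, Cacna2d1, Scn1a, Scn2a1, Cacnb3 and Cacna2d2 were called between the water groups in the 24 alternatives other than that minimum change.

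The median log2 fold change over all tested genes was 0.048 under water, 0.000 after median-of-ratios rescaling and 0.136 after scaling by pan-neuronal markers. In DKO nicotine against WT water it was 0.064, 0.006 and 0.177. Only the groups compared was not run for the interaction, which uses all groups. With the replicate number as a block, 16, 20 and 19 genes were called in DKO water against WT water, DKO nicotine against WT nicotine and DKO nicotine against WT water, and 0 in the other comparisons. The shares of all tested genes were 36.3%, 31.3% and 33.4%. Deviations of same-numbered libraries from their group means had correlations of -0.214 to 0.165. The labels do not say whether same-numbered libraries were paired, and these correlations cannot settle it. Depth limits the 10 genes under the filter, several on fewer than 10 reads per library.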
